A study of Homo sapiens with 9 samples.

Results

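MCL1 and its relatives of the BCL2 family were followed in HCT116 cells with wild-type or catalytically mutated HUWE1. The group was set by name, as the 10 rows of the count table whose gene symbol is MCL1, BCL2L1, BCL2L2, BAX, BAK1, BID, BAD, BBC3, PMAIP1 or BCL2L11, and all 10 were found among the 11350 genes. HCT116 is a human colorectal carcinoma cell line with epithelial character. The 3 lines were compared without any treatment. HUWE1-P cells are the parental line. In HUWE1-WT and HUWE1-CS cells, CRISPR and a repair template were used to rewrite the end of the endogenous HUWE1 gene, so that the catalytic cysteine of the HECT domain is encoded again as cysteine (HUWE1-WT) or as serine (HUWE1-CS). Both edited lines therefore also carry a blasticidin resistance gene behind HUWE1, went through puromycin and blasticidin selection and descend from single cells, which is not so for HUWE1-P cells. Each line gave 3 libraries, and the sources used here do not say whether the libraries of an edited line come from 1 clone or from more.

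BCL2 proteins control the permeability of the outer mitochondrial membrane and thereby the release of cytochrome c, the committing step of intrinsic apoptosis. Anti-apoptotic members (MCL1, BCL2L1 and BCL2L2) hold the effectors BAX and BAK1 in check, while BH3-only members (BID, BAD, BBC3, PMAIP1 and BCL2L11) sense stress and either block the anti-apoptotic proteins or activate the effectors. MCL1 protein is short-lived and is a known substrate of HUWE1, which is also called MULE, for MCL1 ubiquitin ligase E3. Only mRNA was counted here, so the level and turnover of the proteins were not measured.

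Reads per gene, counted by the authors and deposited without normalization, were scaled by TMM and are given as CPM, normalized counts relative to the library total. The 9 libraries held between 1610984 and 2060349 counts, and a single member had between 20 and 493 counts in a library. Genes were called at a false discovery rate (FDR) of at most 0.01 in edgeR's quasi-likelihood test, with p-values adjusted over all 11350 genes. All 5 epithelial markers examined (EPCAM, KRT8, KRT18, KRT19 and CDH1) were expressed. Of 8 markers of leukocytes, fibroblasts and endothelium, CD68 had a mean of at most 12.7 CPM and COL1A1 of at most 22.2 CPM in a line. The other 6 were not among the 11350 genes of the count table. CDH1 (0.53) and EPCAM (0.28) rose and KRT8 (-0.32), KRT18 (-0.30) and COL1A1 (-0.96) fell in HUWE1-CS cells relative to HUWE1-P cells (log2 fold changes), and the part of such shifts in the results was not tested. HUWE1 mRNA itself was 543 ± 19.8 CPM in HUWE1-P, 469 ± 25.8 CPM in HUWE1-WT and 336 ± 11.7 CPM in HUWE1-CS cells (SD, n = 3 each). Counts per gene do not show the exchanged codon.

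BAX and BBC3 mRNA rose in HUWE1-CS cells against both control lines, by 1.72-fold to 2.12-fold, and BCL2L2 mRNA fell against HUWE1-P cells. MCL1 mRNA was not called in any comparison. Of the 10 members, 3 passed the threshold in HUWE1-CS against HUWE1-P cells, 2 of them up and 1 down; of all genes 17.0% were called, 8.46% higher and 8.58% lower. Against HUWE1-WT cells 2 members were called, both higher, where 15.5% of all genes were, 7.42% of them upward. With so few members, these counts are not far from the background, and the members had a median log2 fold change of 0.0054, relative to HUWE1-P cells, beside -0.0072 over all genes. Between the control lines, 0 members were called by edgeR, DESeq2 or limma-voom, where edgeR called 0.0617% of all genes. By unadjusted p under 0.05 there were 0 members in each of these tools, beside 629 of all 11350 genes in edgeR. By library, 6 members had their 3 HUWE1-CS values outside the range of the 6 controls, 4 above and 2 below it, where 26.3% of all genes did (12.9% above, 13.4% below).

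**Figure D1:**
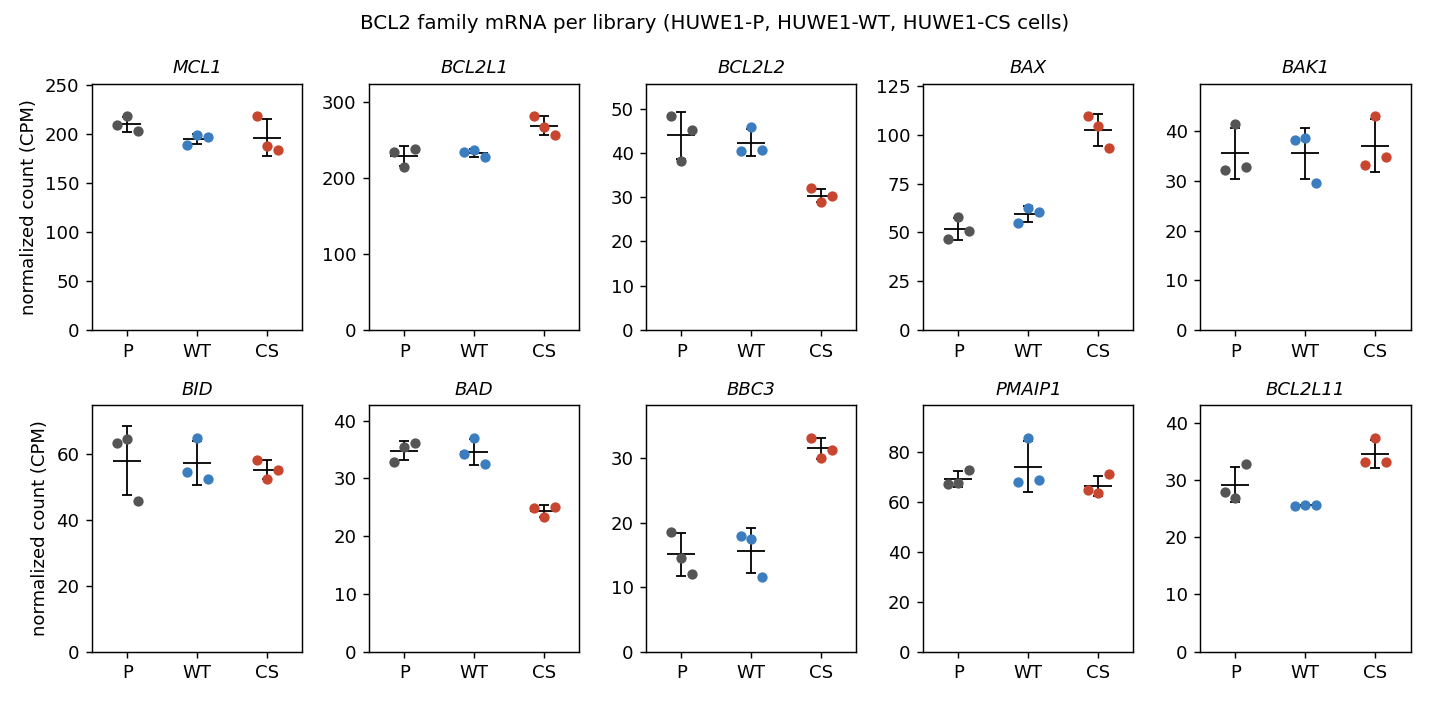
Normalized counts (CPM, linear axes from 0) of the 10 members in each library of the parental (P), cysteine (WT) and serine (CS) lines; points are libraries, bars the mean and SD of 3 libraries. BCL2L1, BAX, BBC3 and BCL2L11 lie higher and BCL2L2 and BAD lower in all 3 HUWE1-CS libraries than in all 6 control libraries, while the MCL1 points of the 3 lines overlap.

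MCL1 (Entrez identifier 4170, chr1:150533371-150552214, minus strand, GRCh37) encodes the anti-apoptotic protein that gave HUWE1 its older name. Its normalized counts were 209, 218 and 203 CPM in HUWE1-P, 189, 200 and 197 CPM in HUWE1-WT and 219, 188 and 183 CPM in HUWE1-CS libraries. The HUWE1-CS libraries thus spanned the values of both controls, with 1 of the 3 above every other library and the other two below every other. The log2 fold change of HUWE1-CS against HUWE1-P cells was -0.10, with a 95% confidence interval from -0.25 to 0.06 (adjusted p = 0.390, edgeR). Against HUWE1-WT cells it was 0.0084, from -0.15 to 0.16 (adjusted p = 0.959, edgeR). The intervals thus leave room for only small differences in MCL1 mRNA, and the sign against HUWE1-WT cells depended on single libraries, being -0.07 without HUWE1-CS replicate 1 and -0.01 without HUWE1-WT replicate 1. HUWE1-WT cells had less MCL1 mRNA than HUWE1-P cells in each library, by 0.10 on the log2 scale, but this was not called (adjusted p = 0.951, edgeR), and the control lines did not overlap for 10.7% of all genes, with HUWE1-WT lower for 5.31%.

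BCL2L1 (Entrez identifier 598, chr20:30252255-30311792, minus strand), the gene of BCL-XL, had the highest mean normalized count of the members in every line. It had 234, 214 and 238 CPM in HUWE1-P, 234, 236 and 227 CPM in HUWE1-WT and 281, 266 and 257 CPM in HUWE1-CS libraries. Every HUWE1-CS library was above every control library. The log2 fold change was 0.23 (95% interval 0.09 to 0.37) against HUWE1-P cells, with an adjusted p of 0.0112 (edgeR) that just missed the threshold, and 0.21 (0.06 to 0.35) against HUWE1-WT cells (adjusted p = 0.0264, edgeR). Some other settings moved the first value across the threshold, for example a filter for at least 10 counts in every library (adjusted p = 0.00870, edgeR). The same held without HUWE1-CS replicate 3 (0.00756), without HUWE1-WT replicate 2 (0.00788) and without HUWE1-WT replicate 1 (0.00858). HUWE1-WT is not a line of this comparison. In 11 of the 21 other settings BCL2L1 stayed uncalled against HUWE1-P cells. Among these were DESeq2 (adjusted p = 0.0412) and limma-voom (adjusted p = 0.0119). It also stayed uncalled without HUWE1-P replicate 1 (0.0234), 2 (0.0904) or 3 (0.0167) and without HUWE1-CS replicate 1 (0.0751). Counts per gene do not separate the long and short splice forms, which have opposite functions.

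BCL2L2 (Entrez identifier 599, chr14:23767999-23780960, plus strand), which encodes the less studied anti-apoptotic protein BCL-W, went the other way. Its values were 48.4, 38.2 and 45.3 CPM in HUWE1-P, 40.6, 45.8 and 40.7 CPM in HUWE1-WT and 32.0, 28.9 and 30.2 CPM in HUWE1-CS libraries. All HUWE1-CS libraries were below all control libraries. BCL2L2 fell by 0.53 on the log2 scale against HUWE1-P cells (95% interval -0.84 to -0.22, adjusted p = 0.00613, edgeR). The difference from HUWE1-WT cells, -0.48 (-0.79 to -0.17), was of like size but not called (adjusted p = 0.0166, edgeR). The call rested on a narrow margin. It was lost with DESeq2 (adjusted p = 0.0539), without HUWE1-P replicate 1 (0.0405) or 3 (0.0315), and without HUWE1-CS replicate 1 (0.0120), 2 (0.0313) or 3 (0.0219), and with the length trend described for BAX removed (0.0109). The exons of BCL2L2 overlap those of the read-through gene BCL2L2-PABPN1 and, on the other strand, of HOMEZ and PPP1R3E. HOMEZ, with a mean of 19.7 CPM, differed by 0.50 against HUWE1-P cells (adjusted p = 0.0636, edgeR), and how the authors divided shared reads is not given in the sources used here.

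BAX (Entrez identifier 581, chr19:49458072-49465055, plus strand) encodes the effector that moves from the cytosol to mitochondria and forms pores there. It was counted at 46.6, 57.8 and 50.6 CPM in HUWE1-P, 55.0, 62.7 and 60.5 CPM in HUWE1-WT and 110, 104 and 93.5 CPM in HUWE1-CS libraries. The lowest HUWE1-CS library was well above the highest control library. BAX rose 1.98-fold against HUWE1-P cells, a log2 fold change of 0.99 with a standard error of 0.116 (adjusted p = 1.81e-11, edgeR), and had rank 138 of 11350 genes by p-value. Against HUWE1-WT cells it rose 1.72-fold (0.78 on the log2 scale, standard error 0.113; adjusted p = 2.21e-08 by edgeR). At least as large a change in either direction was found for 3.30% of all genes against HUWE1-P and 5.99% against HUWE1-WT cells. BAX was called against both controls in all 21 other settings, with an adjusted p of at most 4.34e-06 (edgeR, with a library left out). Its canonical transcript of 795 bases is short, and short transcripts as a class were higher in HUWE1-CS cells. Relative to HUWE1-P cells, the median log2 fold change was 0.12 for the genes of quartile 1 of transcript length, the shortest, and -0.11 for those of quartile 4. With this trend removed, the change of BAX was 0.81 (adjusted p = 7.17e-09, edgeR).

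BAK1 (Entrez identifier 578, chr6:33540324-33548070, minus strand) encodes the second effector, which resides on mitochondria. Its values, 32.3, 41.5 and 32.8 CPM in HUWE1-P, 38.2, 38.7 and 29.7 CPM in HUWE1-WT and 33.2, 43.1 and 34.8 CPM in HUWE1-CS libraries, overlapped fully. The log2 fold change was 0.06 against HUWE1-P cells (95% interval -0.25 to 0.38, adjusted p = 0.813, edgeR) and 0.06 against HUWE1-WT cells (-0.26 to 0.38, adjusted p = 0.833, edgeR). The effectors thus parted: an increase of BAK1 as large as that of BAX lay outside its interval. Within single libraries, the ratio of BAX to BAK1 counts, each per transcript length, was 3.98 ± 0.212 in HUWE1-P, 4.64 ± 0.840 in HUWE1-WT and 7.65 ± 1.24 in HUWE1-CS cells (SD, n = 3 each).

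**Figure D2:**
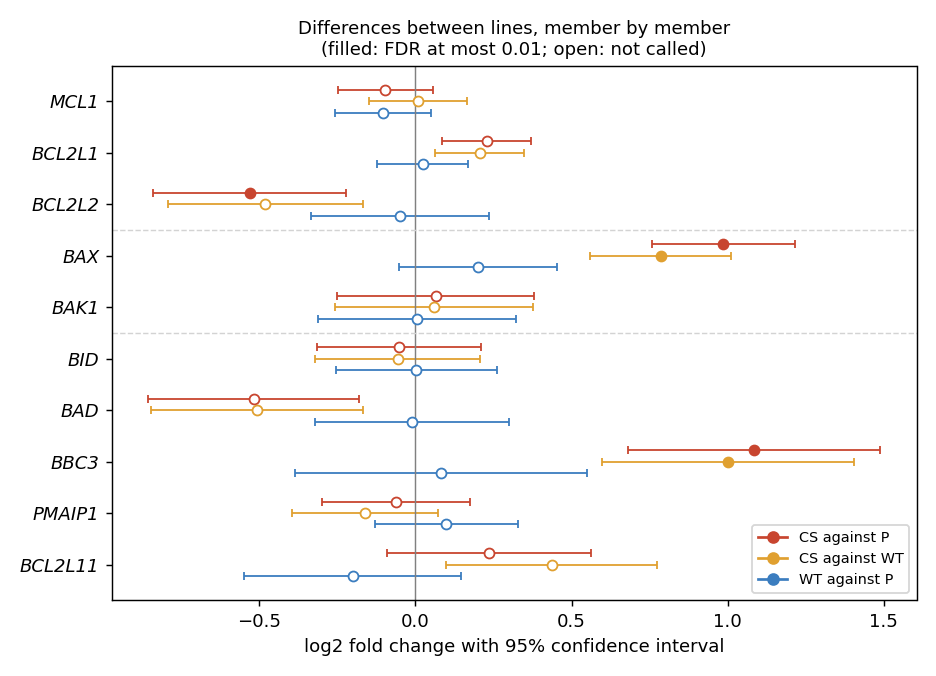
Log2 fold changes of the 10 members (horizontal axis) with 95% confidence intervals for HUWE1-CS against HUWE1-P, HUWE1-CS against HUWE1-WT and HUWE1-WT against HUWE1-P cells; filled points have an FDR of at most 0.01, and dashed lines part anti-apoptotic, effector and BH3-only members. BAX and BBC3 are filled in both comparisons of HUWE1-CS cells and BCL2L2 in 1, and every interval for the control lines includes 0.

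BBC3 (Entrez identifier 27113, chr19:47724079-47736023, minus strand) encodes PUMA, a BH3-only protein that binds all anti-apoptotic members. It was among the lower members by count, with counts of 18.6, 14.6 and 12.0 CPM in HUWE1-P, 18.0, 17.5 and 11.6 CPM in HUWE1-WT and 33.2, 30.1 and 31.4 CPM in HUWE1-CS libraries. These values stand for 20 to 32 reads in control and 53 to 56 reads in HUWE1-CS libraries, and the groups did not overlap. BBC3 rose 2.12-fold against HUWE1-P cells (1.08 on the log2 scale, standard error 0.204; adjusted p = 1.23e-05 by edgeR) and 2.00-fold against HUWE1-WT cells (1.00 on that scale, with 0.203 as its standard error and an adjusted p of 5.70e-05 by edgeR). It was called in all 21 other settings in both comparisons, with an adjusted p of at most 0.00304.

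PMAIP1 (Entrez identifier 5366, chr18:57567228-57571537, plus strand) encodes NOXA, the BH3-only protein with a preference for MCL1, and did not follow BBC3. Its values were 67.0, 67.4 and 72.8 CPM in HUWE1-P, 67.8, 85.6 and 68.6 CPM in HUWE1-WT and 64.7, 63.5 and 70.8 CPM in HUWE1-CS libraries. HUWE1-WT replicate 2 was the highest and the other 8 libraries lay close together. The log2 fold change was -0.06 against HUWE1-P cells (95% interval -0.30 to 0.17, adjusted p = 0.756, edgeR) and -0.16 against HUWE1-WT cells (-0.40 to 0.07, adjusted p = 0.346, edgeR). A change as large as that of BBC3 was outside both intervals.

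The other BH3-only members differed less than BBC3. BAD (Entrez identifier 572, chr11:64037302-64052176, minus strand), which survival kinases keep inactive by phosphorylation, had 32.9, 35.4 and 36.1 CPM in HUWE1-P, 34.2, 37.1 and 32.6 CPM in HUWE1-WT and 24.9, 23.3 and 25.0 CPM in HUWE1-CS libraries. Each HUWE1-CS library was below each control library. The log2 fold changes of -0.52 against HUWE1-P (95% interval -0.85 to -0.18, adjusted p = 0.0159, edgeR) and -0.51 against HUWE1-WT cells (-0.85 to -0.17, adjusted p = 0.0209, edgeR) did not pass the threshold. The canonical transcript of BAD, with 929 bases, is nearly as short as that of BAX, but its change opposed the trend of short transcripts. With the trend removed it was called, at -0.68 against HUWE1-P (adjusted p = 0.00107, edgeR) and -0.64 against HUWE1-WT cells (adjusted p = 0.00241, edgeR). In each comparison, however, 18 of the 21 other settings left BAD uncalled. With single libraries left out, its adjusted p reached 0.0647 against HUWE1-P and 0.0943 against HUWE1-WT cells (edgeR). Exons of GPR137 lie on the other strand of the same place; GPR137 had a mean of 13.6 CPM and a log2 fold change of 0.26 against HUWE1-P cells (adjusted p = 0.491, edgeR).

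BID (Entrez identifier 637, chr22:18216904-18257536, minus strand), which caspase-8 cleaves to link death receptors to mitochondria, had 63.3, 64.5 and 45.8 CPM in HUWE1-P, 54.5, 64.9 and 52.3 CPM in HUWE1-WT and 58.2, 52.2 and 55.2 CPM in HUWE1-CS libraries. The lines overlapped, and the log2 fold changes of HUWE1-CS cells were -0.05 (95% interval -0.32 to 0.21) and -0.06 (-0.32 to 0.21) against HUWE1-P and HUWE1-WT cells. BCL2L11 (Entrez identifier 10018, chr2:111876955-111926021, plus strand), the gene of BIM, had 27.9, 26.9 and 32.8 CPM in HUWE1-P, 25.5, 25.6 and 25.6 CPM in HUWE1-WT and 33.2, 37.4 and 33.1 CPM in HUWE1-CS libraries. The HUWE1-CS libraries lay above the controls by a small gap. Its log2 fold change was 0.23 against HUWE1-P (95% interval -0.09 to 0.56, adjusted p = 0.309, edgeR) and 0.44 against HUWE1-WT cells (0.10 to 0.77, adjusted p = 0.0501, edgeR), neither of them called. Exons of the long noncoding RNA MIR4435-2HG overlap BCL2L11 on the other strand. That RNA, with a mean of 7.23 CPM, fell by 2.63 on the log2 scale against HUWE1-P cells (adjusted p = 1.11e-06, edgeR), and without knowledge of strand in the counting the reads of the pair cannot be told apart.

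Per kilobase of canonical transcript, the order of the members changed at its top. The annotation used for counting is not known, so comparisons between genes hold only as far as these lengths do. The place of BAX rests on its length of 795 bases. Without division by length, BCL2L1 (268 CPM) was above BAX (103 CPM) in HUWE1-CS cells too. In HUWE1-P cells BCL2L1 led with 88.8 ± 4.97 CPM per kilobase, followed by BAX with 65.0 ± 7.17 and MCL1 with 53.2 ± 1.92 (SD, n = 3 each). In HUWE1-CS cells BAX led with 129 ± 10.4, before BCL2L1 with 104 ± 4.84 and MCL1 with 49.8 ± 4.91 CPM per kilobase. These leading values did not overlap between neighbours in either line. BCL2L11 was lowest in all lines, with 5.73 ± 0.611, 5.02 ± 0.0136 and 6.78 ± 0.483 CPM per kilobase in parental, HUWE1-WT and HUWE1-CS cells. BBC3 moved from 8.17 ± 1.80 CPM per kilobase in HUWE1-P, below BCL2L2 with 12.5 ± 1.49, to 17.1 ± 0.865 in HUWE1-CS cells, where it overlapped with BAK1 at 17.1 ± 2.44. BAD and PMAIP1 overlapped in both control lines, and BAD and BID overlapped in HUWE1-CS cells. Set against each other per length within a library, BAX exceeded MCL1 by a ratio of 1.11 to 1.32 in HUWE1-P, 1.44 to 1.56 in HUWE1-WT and 2.49 to 2.76 in HUWE1-CS libraries.

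**Figure D3:**
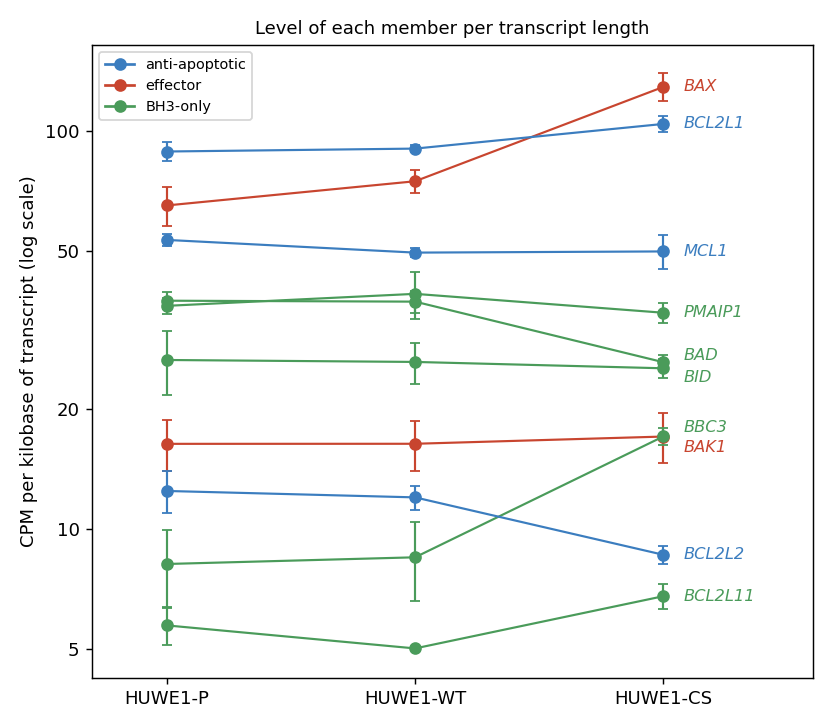
Level of each member in CPM per kilobase of canonical transcript (log axis), as mean and SD of 3 libraries in each line, coloured by role; lines only join the values of a gene. BAX crosses BCL2L1 to become the highest member in HUWE1-CS cells, and BBC3 rises past BCL2L2 to the level of BAK1.

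To place BAX and MCL1 among all genes, their log2 CPM over the 9 libraries was compared with that of 9983 genes of at least 10 CPM on average. Genes most like BAX were TMEM219 (Pearson's r = 0.985), GDF15 (0.981), a stress-responsive cytokine gene, and ATP5PD (0.981), a subunit gene of ATP synthase. Each of these was itself called higher in HUWE1-CS than in HUWE1-P cells, by 0.78, 1.79 and 0.77 on the log2 scale, and 398 genes had an r of at least 0.9 with BAX. For MCL1 the closest were NT5C (0.889), LRP6 (0.877) and TNKS2 (0.874), none of them called, and 0 genes reached 0.9. BAX was taken because it had the smallest p-value of the members in HUWE1-CS against HUWE1-P cells. A gene picked in this way resembles the other genes that differ between the lines. The counts of 398 and 0 are therefore no finding about BAX and MCL1. All points share the same libraries and the difference between lines, so that these values only describe the pattern.

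Among further genes of the pathway, MDM2, ATF4, FAS and TNFRSF10B were called higher in HUWE1-CS cells against both controls, and FBXW7, USP13 and HUWE1 lower. Of the transcription factors known to act on BH3-only genes, together with MDM2, 8 are described here, of which 2 were called higher and 0 lower against HUWE1-P cells, beside 8.46% and 8.58% of all genes. Their median log2 fold change was 0.16. With a list this short, and cut after the data were seen, such a count says nothing particular about the list. MDM2, a ubiquitin ligase gene, rose by 0.63 (adjusted p = 1.78e-11, edgeR), and ATF4, the factor of the integrated stress response, by 0.32 (adjusted p = 3.51e-05, edgeR). Both were called against HUWE1-WT cells too. MYC fell by 0.31 against HUWE1-WT cells (adjusted p = 1.36e-04, edgeR), while its difference of -0.16 from HUWE1-P cells was not called (adjusted p = 0.0679, edgeR).

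In the death receptor arm 10 of 12 genes were measured, 2 were called higher and 0 lower against HUWE1-P cells, where 8.46% of all genes were called higher and 8.58% lower. The median log2 fold change was -0.0020. The death receptor gene TNFRSF10B rose from 128 ± 7.32 to 191 ± 10.8 CPM (SD, n = 3 each), a log2 fold change of 0.57 (adjusted p = 3.40e-08, edgeR). FAS rose from 18.4 ± 3.32 to 30.1 ± 3.48 CPM, by 0.71 (adjusted p = 0.00313, edgeR), and both were called against HUWE1-WT cells. The call of FAS against HUWE1-P cells was lost with DESeq2 (adjusted p = 0.0356) and without HUWE1-P replicate 2 (0.0392), HUWE1-CS replicate 2 (0.0189) or HUWE1-CS replicate 3 (0.0159). Against HUWE1-WT cells it was lost with DESeq2 (0.0618), with total counts (0.0101), without HUWE1-WT replicate 1 (0.0259) or 2 (0.0376) and without HUWE1-CS replicate 2 (0.0341) or 3 (0.0302). CASP8, FADD and RIPK1, which carry the signal of these receptors, had log2 fold changes of -0.0034, -0.16 and -0.04 and were not called.

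Downstream of the BCL2 proteins, 12 genes of the mitochondrial step, the apoptosome and the caspases are described here, which is not the whole of that machinery. Of these 12, 0 were called against either control by edgeR, DESeq2 or limma-voom. Of all genes, edgeR called 17.0% against HUWE1-P and 15.5% against HUWE1-WT cells. A count of 0 in a list this short, or in the lists that follow, therefore says little about the list. In edgeR, 4100 of all 11350 genes had an unadjusted p under 0.05 against HUWE1-P and 3968 against HUWE1-WT cells. Of the 12, edgeR had 1 against HUWE1-P and 2 against HUWE1-WT cells by that measure. For limma-voom it was likewise 1 and 2 of the 12, and for DESeq2 0 in both. Their median log2 fold change was 0.03 against HUWE1-P cells, with CYCS at 0.07, APAF1 at -0.21 and the 3 VDAC genes at 0.03 to 0.05. The values ran from -0.45 for HTRA2 (adjusted p = 0.0568, edgeR) to 0.39 for CASP9, which had only 8 to 20 counts in a library. Of the inhibitors of apoptosis, XIAP, BIRC2, BIRC5 and BIRC6 were measured, with log2 fold changes between -0.13 and 0.24. Of these 4, 0 passed the threshold in edgeR, DESeq2 or limma-voom, 0 had an unadjusted p under 0.05 in edgeR or DESeq2, and 1 had an unadjusted p under 0.05 in limma-voom. Of 17 other BCL2 relatives 10 were measured, among them BOK, BIK and BNIP3, and 0 were called against HUWE1-P cells by edgeR, DESeq2 or limma-voom, with 0 unadjusted p-values under 0.05 and log2 fold changes between -0.12 and 0.39. BECN1, the autophagy gene with a BH3 motif, was called against HUWE1-WT cells only (0.56, adjusted p = 3.98e-04, edgeR), and not without HUWE1-WT replicate 1 (0.0113). The difference between its 2 comparisons is the difference between the control lines, -0.38, which was not called (adjusted p = 0.606, edgeR).

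Of ligases and deubiquitinases known to act on MCL1 protein, 9 of 10 were measured, and 3 were called lower and 0 higher against HUWE1-P cells, where 8.58% of all genes were called lower. The median log2 fold change was -0.14, beside -0.0072 over all genes and -0.11 for the genes of quartile 4 of transcript length. Several genes of the list have long transcripts, such as HUWE1 with 14720 and USP9X with 12543 bases. With a list this short, such a count says little about the list. HUWE1 is one of them and is itself the edited gene, with a log2 fold change of -0.69 (adjusted p = 1.06e-15, edgeR). The difference between the control lines, HUWE1-WT against HUWE1-P, was -0.21 and not called (adjusted p = 0.354, edgeR). Against HUWE1-WT cells, HUWE1 in HUWE1-CS cells changed by -0.48 (adjusted p = 4.68e-09, edgeR). With the length trend described for BAX removed, the change of HUWE1 was smaller but still called. It was then -0.46 against HUWE1-P (adjusted p = 2.30e-10, edgeR) and -0.34 against HUWE1-WT cells (adjusted p = 3.57e-06, edgeR). FBXW7, a substrate receptor of the SCF ligase, fell from 24.2 ± 0.631 to 13.7 ± 1.35 CPM, by 0.81 on the log2 scale (adjusted p = 0.00231, edgeR), and fell by 0.84 against HUWE1-WT cells (adjusted p = 0.00179, edgeR). USP13, a deubiquitinase that stabilises MCL1, fell from 62.3 ± 7.94 to 40.8 ± 3.66 CPM, by 0.60 (adjusted p = 2.82e-04, edgeR). FBXW7 and USP13, which act on MCL1 in opposite ways, were thus both lower. The call of FBXW7 was lost with DESeq2 (adjusted p = 0.0274) and without HUWE1-CS replicate 3 (0.0196), and against HUWE1-WT cells with DESeq2 (0.0236) and without HUWE1-WT replicate 2 (0.0275) or HUWE1-CS replicate 3 (0.0163). USP9X, the other main deubiquitinase of MCL1, differed by -0.12 (adjusted p = 0.376, edgeR). MARCHF5, a mitochondrial ligase, fell by 0.41 against HUWE1-WT cells (adjusted p = 0.00764, edgeR) and differed by -0.30 from HUWE1-P cells (adjusted p = 0.0574, edgeR). Its call was lost without HUWE1-WT replicate 2 (0.0369) or 3 (0.0547), with DESeq2 (0.0594), with the length trend removed (-0.36, adjusted p = 0.0190), also together with the replicate block (0.0199), and without HUWE1-CS replicate 1 (0.0161), 2 (0.0570) or 3 (0.0130). That of USP13 against HUWE1-WT cells (-0.51, adjusted p = 0.00291, edgeR) was lost with DESeq2 (0.0322), with the length trend removed (-0.41, adjusted p = 0.0193), also together with the replicate block (0.0196), without HUWE1-WT replicate 3 (0.0355) and without HUWE1-CS replicate 1 (0.0130) or 2 (0.0270). In bulk RNA, fewer cells with a transcript and less of it per cell cannot be told apart, which holds for all of these values.

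**Figure D4:**
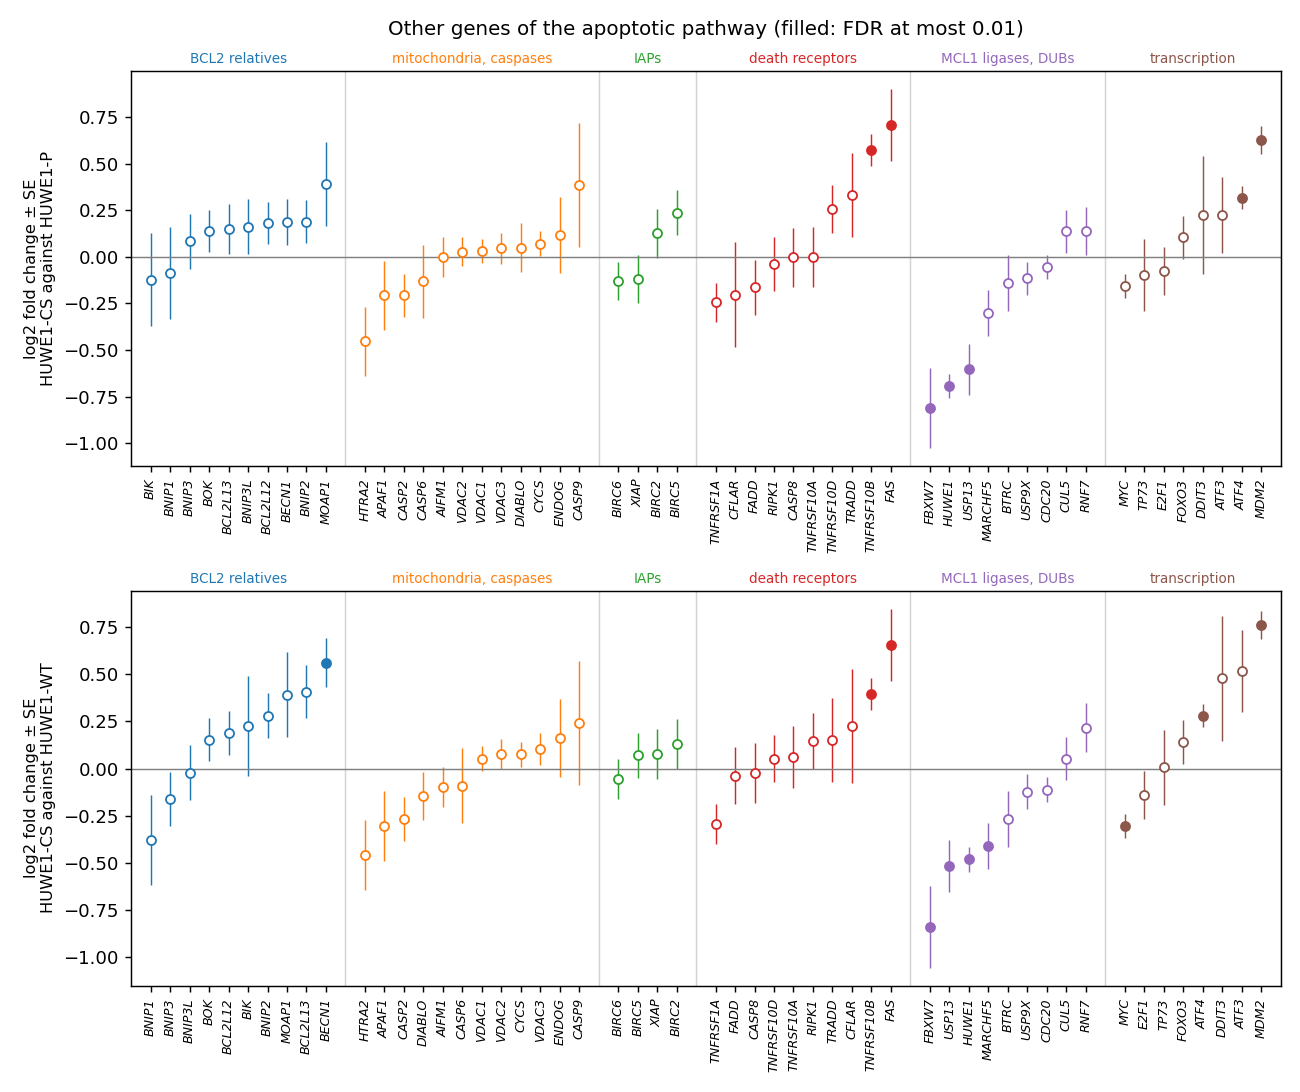
Log2 fold changes with standard errors of other pathway genes, in 6 lists and ordered by value within each list, for HUWE1-CS against HUWE1-P (top) and against HUWE1-WT cells (bottom); filled points have an FDR of at most 0.01. FAS, TNFRSF10B, MDM2 and ATF4 are filled above 0 and FBXW7, HUWE1 and USP13 below 0 in both panels.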

How the data were processed

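Polyadenylated RNA was sequenced with single-end reads. Per the labels and the study's methods, the authors removed adapters (Skewer), aligned to hg19 by STAR 2.5.4 and deposited raw counts per gene; the counting tool, annotation and strand setting are not given in the sources used here. Their deposited tables of edgeR results (fold changes, p-values) were not used. Counts were analysed with R 4.3.3, edgeR 4.0.16 (TMM, line as the only term, all 9 libraries, glmQLFit with legacy = TRUE, glmQLFTest, no gene removed by filterByExpr), limma 3.58.1 and DESeq2 1.42.0. Fits were also run on simulated counts with set changes, drawn with the fitted spread and without a length trend. That run cannot show how well the fits suit these data. The legacy estimator is that of the authors' edgeR 3.26.8, and it was chosen knowing that an earlier analysis of these data had settled on it by comparison with those tables. Positions and canonical transcripts came from GENCODE release 44 lifted to GRCh37, the assembly also called hg19. At these depths 3 counts correspond to 1.45 to 1.86 CPM, and p-values and intervals measure only the spread between these libraries, which the study describes as distinct samples. Replicate pairs differed by more than sampling noise (chi-square per degree of freedom 1.16 to 1.65). Members, lists and tests were chosen with earlier results of these data known. The genes named are the 10 members, HUWE1, every list gene called in at least 1 comparison, and the 3 genes most like MCL1 and BAX; other list genes named as not called were chosen after their values were seen. Some genes of the lists are not reported here and were taken out of the lists after the data were seen, so list counts cover only the genes described. Alternatives are given at the end.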

Additional observations from a re-analysis of the deposited data

How the results depend on the processing

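The tests were repeated with DESeq2, limma-voom, RLE factors, total counts, at least 10 counts in every library, only the lines compared, the newer edgeR estimator, a robust fit, the replicate block, a length trend removed, block and trend together, each library left out, and an FDR of 0.05. Of 630 values over 30 member results, 574 kept their direction and side of the threshold, 8 lost a call, 18 gained one and 30 changed sign without being called. The FDR of 0.05 reused the main fit, so no call could be lost and no sign could change there. Some left-out libraries belonged to the line outside a given comparison. List genes were repeated only for results that were called, so no gain was possible, and of 357 values over 17 such results 327 kept both and 30 lost the call. The cause was not tested.

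At an FDR of 0.05, 5 members were called against HUWE1-P and 5 against HUWE1-WT cells, and all genes called numbered 2999, 2774 and, between the control lines, 13. DESeq2 called 1088, 998 and 0 genes. Between the control lines, where 7 were called, the 10-count minimum left 4 and the robust fit 1. With libraries left out in turn, 1 gene (without HUWE1-P replicate 2 or HUWE1-WT replicate 2) to 19 (without HUWE1-WT replicate 1) were called there, with 3 and 13 without HUWE1-P replicates 1 and 3 and 17 without HUWE1-WT replicate 3.

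Deviations of same-numbered libraries were at most weakly related, with correlations of -0.02 to 0.06 over 9 pairs, against -0.07 to 0.03 over 18 pairs of unlike number. Even so, 8 of 9 libraries correlated best with a library of their own number. The main fit did not take the numbers as pairs, and whether they mark pairs was not tested. With the replicate block, 2021, 1835 and 7 genes and 4, 2 and 0 members were called in the 3 comparisons, BCL2L1 being the added member.

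Changes of sign were small. MCL1 against HUWE1-WT cells was -0.018 with total counts. Between the control lines, BAK1 was -0.0037 with the replicate block, -0.013 with the length trend removed and -0.021 with both, and BID was -0.0038 with DESeq2, -0.0041 with the replicate block, -0.013 with the trend removed and -0.021 with both. Leaving out libraries gave log2 fold changes of -0.074 to 0.063 for MCL1, -0.058 to 0.14 for BAK1 and -0.12 to 0.053 for BID in HUWE1-CS against HUWE1-WT cells, and of -0.052 to 0.19 for BAK1 and -0.21 to 0.039 for BID against HUWE1-P cells. Between the control lines the ranges were -0.022 to 0.055 for BCL2L1, -0.14 to 0.016 for BCL2L2, -0.062 to 0.13 for BAK1, -0.16 to 0.10 for BID, -0.063 to 0.031 for BAD, -0.071 to 0.25 for BBC3 and -0.020 to 0.16 for PMAIP1.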
